A study of Mus musculus with 22 samples.

Results

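The 38 genes described here encode the transport machinery, the base and the membrane of the primary cilium. They were taken by gene symbol from the 17306 genes of the deposited table. By complex they fall into 10 subunits of intraflagellar transport (IFT) complex B, 4 of IFT complex A, 8 genes of the BBSome and its recruiting GTPase, 6 motor genes, 5 genes of the transition zone and basal body, and 5 genes of the ciliary membrane. All 38 members passed the filter on low values (CPM, the reads of a gene scaled to the size of its library; 5 libraries or more had to reach -1 on the log2 scale), as did 16765 genes in all.

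The values come from bulk RNA sequencing of lumbar spinal cord from 22 wild-type C57BL6J mice aged 12 to 14 weeks at collection. Every mouse had received 1 mg of sodium iodoacetate (MIA) in a knee joint, a model of osteoarthritis pain, and tissue was taken on day 30. The paper describes the tissue as the dorsal horn quadrant on the side of the injury, not the whole cord. The mice then differed in what was carried by a vesicular phospholipid gel (VPG), a slow-release depot: SAFit2, a selective inhibitor of the stress co-chaperone FKBP51, at 100 mg/kg, or no drug. Early groups got the gel on days -3 and 4 around MIA (5 SAFit2 mice, 6 Vehicle mice), late groups on days 20 and 27 (5 SAFit2 mice, 6 Vehicle mice). No mouse went without MIA or without gel, so no group gives the level of these genes in an uninjured cord. The sample labels name the batch Early or Late, hence timing and batch cannot be told apart. They also give the first early day as 3 where the series design has -3, and for Early SAFit2 mice they write SAFit1 in the title but SAFit2 under treatment.

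A primary cilium is a solitary, non-motile antenna that grows from the mother centriole of most neurons and glia and concentrates receptors and their second messengers, Hedgehog signalling among them. Complex B trains, pulled by kinesin-2, carry cargo to the tip. Complex A trains with dynein-2 bring it back and admit membrane proteins, the BBSome ships receptors out again, and the transition zone gates what enters. Motile cilia, such as those of the ependymal cells that line the central canal, are built with the same transport genes.

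Many genes of cilia carry an X-box in their promoter, a palindrome bound by RFX transcription factors, and the members were searched for it. The strict form was GTTNCCA followed at once by its reverse complement, and the loose form GTTNCC, 2 free bases, and the reverse complement of GTTNCC. Each form reads the same on both strands, and every strict match is also a loose match. RefSeq promoters (250 bases before to 50 after the start, GRCm38.p6) were at hand for 34 of the 38 members, the others being Ift80, Ift81, Ift122 and Dync2li1. At 0, 1 and 2 mismatches the strict form was present in 0, 2 and 5 of the 34 members, against 0.152%, 1.12% and 3.99% of 27025 promoters. The loose form was present in 2, 6 and 10 members, against 0.529%, 2.89% and 15.8% of promoters. No limit was preferred over another, and a match describes letters in a window, not binding. Strict matches that lie before the start of a member follow for 3 of them, the match in capitals, on the strand of the gene. Bbs7 (chr3:36613489-36613518, minus strand) and Tctn2 (chr5:124598679-124598708, plus strand) have 1 mismatch and end 107 and 48 bases before the start. Ift57 (chr16:49699199-49699228, plus strand) has 2 mismatches and ends 73 bases before it.
Bbs7: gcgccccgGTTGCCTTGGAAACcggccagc
Tctn2: gattggagGTTACCATGGCTACtggtcctc
Ift57: cgggtctgGTTGCCGTGGTGACcggctgcc

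Every member was read in every library, though depth differed between them. Reads on genes ran from 11352989 to 24433349 per library, of which 10948 to 32268 fell on the members. A value of 1 CPM stood for 8.91 to 26.8 reads, least in Late SAFit2 replicates 5 (8.91) and 4 (9.99). The lowest member value anywhere was 0.50 log2 CPM, for Tctn1 in a Late SAFit2 mouse. Markers of the tissue were present throughout: the 10 neuronal markers and the 8 oligodendrocyte markers had no library at 0 reads.

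Per kilobase of transcript, the members spread over a wide range of levels. Arl3, a small GTPase that releases lipid-anchored cargo inside the cilium, was highest at 6.68 log2 CPM per kb. Kif3a, a subunit of the kinesin-2 motor that neurons also use in axons, followed at 6.20, then the complex B subunit Ift20 at 5.22, which also works at the Golgi. At the other end stood the transition zone gene Tctn1 at -0.51, the cilium-tip kinesin Kif7 at -0.04 and Cep164, of the appendages that dock the mother centriole, at 0.09. The median member lay at 2.57, against 2.30 for all genes tested with a length, and 21 members lay above that value. By complex the median level per kb ran from 3.31 for complex B through 2.86 for complex A, 2.64 for the BBSome, 2.12 for the motors and 2.03 for the membrane genes to 1.36 for the transition zone. The members lie on 16 chromosomes, with transcripts of 838 to 14264 bases and a GC content of 38.7% to 60.1% (median 47.8%, against 49.7% for all genes tested).

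**Figure D1:**
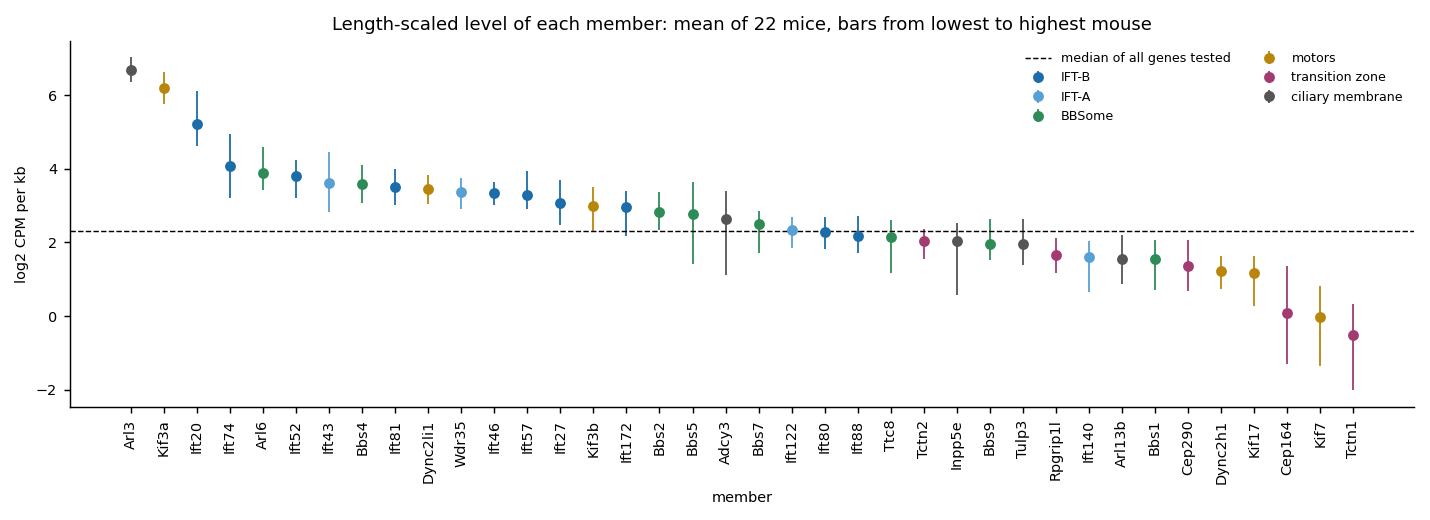
Level of each of the 38 members in log2 CPM per kb of transcript, coloured by complex. Points are means of the 22 mice, bars run from the lowest to the highest mouse, and the dashed line is the median of all genes tested, 2.30.

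Taken as a mean of log2 values over the 38 members, the groups of one timing lay close together. Early SAFit2 mice had 4.49 ± 0.06 (SD, n = 5) and Early Vehicle mice 4.50 ± 0.05 log2 CPM (SD, n = 6). The late groups had 4.34 ± 0.05 (SD, n = 5) with SAFit2 and 4.36 ± 0.05 (SD, n = 6) with vehicle. Summed CPM, which weighs abundant members most, did not give that order: 1195 ± 40.5 in Early SAFit2 (SD, n = 5), 1218 ± 68.4 in Early Vehicle (SD, n = 6), 1227 ± 24.2 in Late SAFit2 (SD, n = 5) and 1152 ± 76.8 in Late Vehicle mice (SD, n = 6). By summed CPM the late group was lower with vehicle but not with SAFit2. The members' share of reads on genes had a median of 0.129% in Early SAFit2 and 0.130% in Early Vehicle libraries. In Late SAFit2 and Late Vehicle libraries it was 0.107% and 0.112%. Thus the mean of log2 values and the share of reads were lower in late mice of either treatment, summed CPM with vehicle only, and none of these measures was tested. These are bulk samples, in which fewer ciliated cells and less RNA per cell cannot be told apart.

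The early comparison addresses whether SAFit2 given around the onset of joint pain left a trace in these genes weeks later. None was found that passed the test. With limma and Benjamini-Hochberg adjustment over all genes tested, 0 of 38 members were called at adjusted p under 0.05 and a 1.2-fold change, and 0 passed a nominal p under 0.05. Among all genes the shares were 0% and 2.48%, and voom on the recovered reads also gave 0 members by either rule. No member had groups that did not overlap, against 0.352% of all genes. Of the 38 log2 fold changes 18 were positive and 20 negative, with a median of -0.02 against 0.01 for all genes, and they ran from -0.31 for Kif17 to 0.30 for Inpp5e.

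Within the complexes the early values lay as follows. All 5 transition zone genes were positive, between 0.04 for Tctn1 and 0.27 for Cep164, and 7 of 8 BBSome genes were negative, down to -0.27 for Ttc8. Both splits were the same under median centring, quantile normalization and library sizes without Bc1 and mitochondrial genes, but not after correction for GC content and length. Tctn1 then turned negative (-0.04), for 4 positive of 5, and Bbs7 positive (0.05), for 6 negative of 8. Complex B had 4 positive values of 10, complex A 2 of 4, the motors 3 of 6 and the membrane genes 3 of 5. Across the 38 members the early log2 fold change went with log2 transcript length (r = 0.585, rho = 0.626, n = 38 genes), more than across all genes (r = 0.123, rho = 0.164). Genes share their libraries and are not independent replicates, so this is a description.

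Exact permutation tests over the mice, two-sided over 462 splits, gave 2 of the 38 members under 0.05 early (5.26%), against 3.81% of all genes tested. Both belong to the members named for the lowest early p of their complex, so their p values describe differences that were already picked out. Inpp5e, a lipid phosphatase that keeps the ciliary membrane poor in certain phosphoinositides, read 4.31, 4.55, 4.58, 4.54 and 4.49 log2 CPM in the Early SAFit2 mice. The Early Vehicle mice ranged from 3.89 to 4.59 with a median of 4.16. All 5 treated mice lay above the vehicle mean and none above the highest vehicle mouse, a difference of 0.30 (SE 0.21, exact permutation p = 0.0368). Ttc8, a BBSome subunit also called BBS8, read 3.02, 3.54, 3.33, 3.50 and 3.65 with early SAFit2. Its Early Vehicle values ran from 3.51 to 3.79 with a median of 3.70, so that 3 treated mice fell below all vehicle mice (-0.27, SE 0.17, exact permutation p = 0.0173). Neither passed limma's test over all genes, by adjusted or nominal p.

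The usual tissue markers of primary cilia did not separate the early groups. Arl13b, a GTPase of the ciliary membrane, read 3.44, 3.28, 3.30, 3.34 and 3.51 log2 CPM with SAFit2. With vehicle it ran from 2.68 to 3.68 (median 3.54), a difference of -0.04 (SE 0.18). Adcy3, the adenylyl cyclase of neuronal cilia, read 4.86, 4.69, 5.70, 5.27 and 5.25 with SAFit2 and 3.62 to 5.44 with vehicle (median 5.13), a difference of 0.24 (SE 0.25). Ift88, a complex B subunit needed to build a cilium, read 4.57, 3.78, 4.39, 4.24 and 4.35 with SAFit2. Its vehicle range was 3.87 to 4.37 (median 4.06), a difference of 0.18 (SE 0.16). For each of these markers the groups overlapped.

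Markers of cells with motile cilia leaned to one side in the early comparison while the members split nearly evenly. Of 40 multiciliated markers 39 were negative and 25 were lower at a nominal p under 0.05, which 2.48% of all genes passed in either direction, with a median of -1.06 and 0 called after adjustment. Their summed level was 65.7, 72.1, 65.7, 68.8 and 70.1 CPM in the Early SAFit2 mice and 84.5 to 188 CPM in the Early Vehicle mice (median 117). The ranges of the groups did not meet. Foxj1, the most abundant marker in every library (mean 18.4 CPM), was the only marker not negative (0.02, SE 0.19). The other markers had means of 0.35 CPM (Spag17) to 6.16 CPM (Rsph9). Between 0 and 7 of the 40, Spag17, Spag16 and Tmem212 most often, had 0 reads in a library. With the mean of these markers as a covariate, 0 members were called and 0 passed nominal p early, with 22 positive and 16 negative. That mean separated the early groups as well, at -0.39 to 0.02 log2 CPM with SAFit2 and 0.17 to 1.88 with vehicle. The fit therefore cannot part marker level from treatment here.

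**Figure D2:**
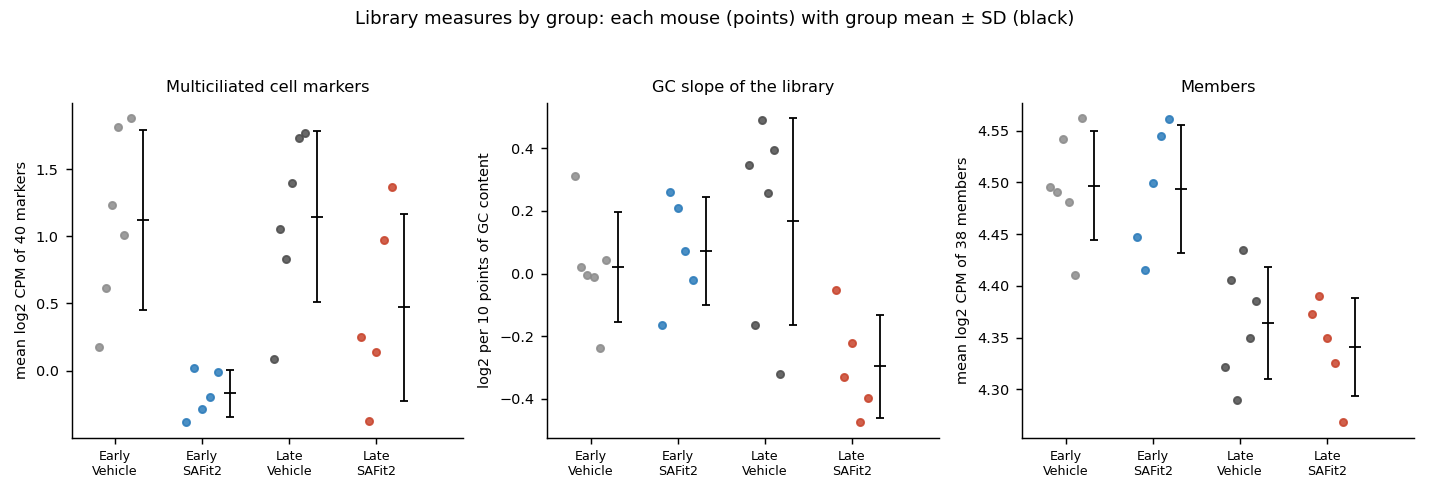
Library measures by group, each mouse a point with the group mean ± SD in black. Left, mean log2 CPM of 40 multiciliated markers, lower in Early SAFit2 than in Early Vehicle; middle, GC slope of the library in log2 per 10 points of GC content, below 0 in all Late SAFit2 mice; right, mean log2 CPM of the 38 members, near 4.5 in the early and lower in the late groups, an order that summed CPM does not share.

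The late comparison asks how the same genes stood with SAFit2 given once pain was established. Its last gel was given on day 27, and the paper counts tissue of day 30 as within the drug's active phase. For the early groups that phase had passed by then, so the 2 comparisons differ in this too. In the late comparison the members moved both ways. Ift74, Ttc8 and Rpgrip1l were higher and Kif7 lower by limma's test, and 19 members passed a nominal p under 0.05, 9 of them higher and 10 lower. Among all genes 12.1% were called (5.33% higher and 6.72% lower), so 4 of 38, or 10.5%, is near the background. Nominal shares were 34.5% for all genes (15.6% higher and 19% lower) and 50% for the members. Overall 18 members were positive and 20 negative, a split that read 22 and 16 after median centring, and their median was -0.01 against -0.05 for all genes. Exact permutation put 13 members (34.2%) under 0.05, against 26.4% of all genes.

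Ift74, which pairs with Ift81 to bind tubulin on complex B trains, read 5.19, 6.05, 5.59, 5.82 and 5.78 log2 CPM in the Late SAFit2 mice. In Late Vehicle mice it ran from 4.31 to 5.61 with a median of 4.83. All 5 treated mice lay above the vehicle mean and 3 above the highest vehicle mouse. The difference was 0.82 (SE 0.20, adjusted p = 0.0324, exact permutation p = 0.0130).

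Kif7, a kinesin that organises the cilium tip for Gli proteins of the Hedgehog pathway, read 1.98, 1.58, 1.49, 1.39 and 0.85 log2 CPM with late SAFit2. The Late Vehicle range was 1.76 to 3.00 with a median of 2.62. Treated mice were low in 5 of 5 cases against the vehicle mean, and 4 fell below every vehicle mouse. The lowest values, 1.39 and 0.85, come from replicates 4 and 5, the libraries of least depth. The log2 fold change was -0.99 (SE 0.26, adjusted p = 0.0329, exact permutation p = 0.0130).

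Rpgrip1l, a scaffold of the transition zone, had the tightest treated group, at 4.67, 4.66, 4.63, 4.49 and 4.61 log2 CPM. Late Vehicle mice ran from 3.98 to 4.43 with a median of 4.20. The groups did not overlap, and the difference was 0.41 (SE 0.13, adjusted p = 0.0443, exact permutation p = 0.0043, the smallest these group sizes allow). Rpgrip1l, higher, and the complex A gene Ift122, lower, were the 2 members with no overlap (1.71% of all genes).

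Ttc8 passed narrowly. Its Late SAFit2 values were 3.15, 3.60, 3.06, 3.51 and 3.68 log2 CPM and its Late Vehicle values 2.34 to 3.23 with a median of 2.96, so that 3 treated mice exceeded all vehicle mice. The difference was 0.50 (SE 0.17, adjusted p = 0.0498, exact permutation p = 0.0195). Bbs5, another BBSome subunit, was close to it but not called, with 3.17, 3.58, 3.12, 3.94 and 3.34 against 1.98 to 3.28 (median 2.92), a difference of 0.62 (adjusted p = 0.0624, exact permutation p = 0.0563).

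Among the members that missed the adjusted threshold on the lower side, Ift140 of complex A came nearest. It read 4.21, 4.14, 4.49, 4.15 and 3.46 log2 CPM with SAFit2 and 4.20 to 4.84 with vehicle (median 4.69), a difference of -0.51 (SE 0.17, adjusted p = 0.0501, exact permutation p = 0.0216). Inpp5e read 3.81, 3.52, 3.98, 3.78 and 2.63 against 3.22 to 4.37 (median 4.25), or -0.54 (SE 0.21, adjusted p = 0.0744, exact permutation p = 0.0974). Adcy3 read 5.38, 4.90, 5.06, 4.71 and 4.69 against 4.78 to 5.89 (median 5.67), also -0.54 (SE 0.25, adjusted p = 0.126, exact permutation p = 0.0498). Each of these had all 5 treated mice below the vehicle mean with overlapping groups.

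The other named markers of cilia pointed the opposite way without passing. Ift88 read 4.14, 4.74, 4.59, 4.00 and 4.79 log2 CPM against 3.94 to 4.43 in Late Vehicle mice (median 4.22), a difference of 0.25 with 3 of 5 treated mice above the vehicle mean (SE 0.16, adjusted p = 0.275). Arl13b read 3.37, 3.35, 3.42, 3.51 and 4.04 against 2.94 to 3.73 (median 3.18), a difference of 0.31 with 5 of 5 above it (SE 0.18, adjusted p = 0.229). After correction for GC content and length Ift88 turned negative (-0.05), while Arl13b (0.08) and Adcy3 (-0.09) kept their sign at a smaller size.

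The nominal counts by complex stand against 34.5% of all genes past nominal p (15.6% higher and 19% lower). By complex, the 4 genes of complex A were all negative in the late comparison, from -0.51 for Ift140 to -0.03 for Ift43, which turned positive under median centring, quantile normalization and GC and length correction. Complex B had 7 positive genes of 10 (5 after GC and length correction), Ift20, Ift74 and Ift81 higher and Ift172 lower at nominal p. The BBSome had 5 positive of 8 (7 under median centring and quantile normalization, where Bbs4 and Bbs7 turned), with Bbs5, Ttc8 and its recruiter Arl6 higher and Bbs1 lower at nominal p. Every transition zone gene passed nominal p, Cep290 (0.53) and Rpgrip1l higher, Cep164 (-0.54), Tctn1 (-0.68) and Tctn2 (-0.38) lower, but none of the 5 passed it after GC and length correction. Of the motors Kif3a was higher and Kif7 lower at nominal p, and of the membrane genes Adcy3 and Inpp5e were lower. Subunits of one complex thus took opposite signs as deposited, without a complex B, BBSome or transition zone direction shared by all of its genes.

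**Figure D3:**
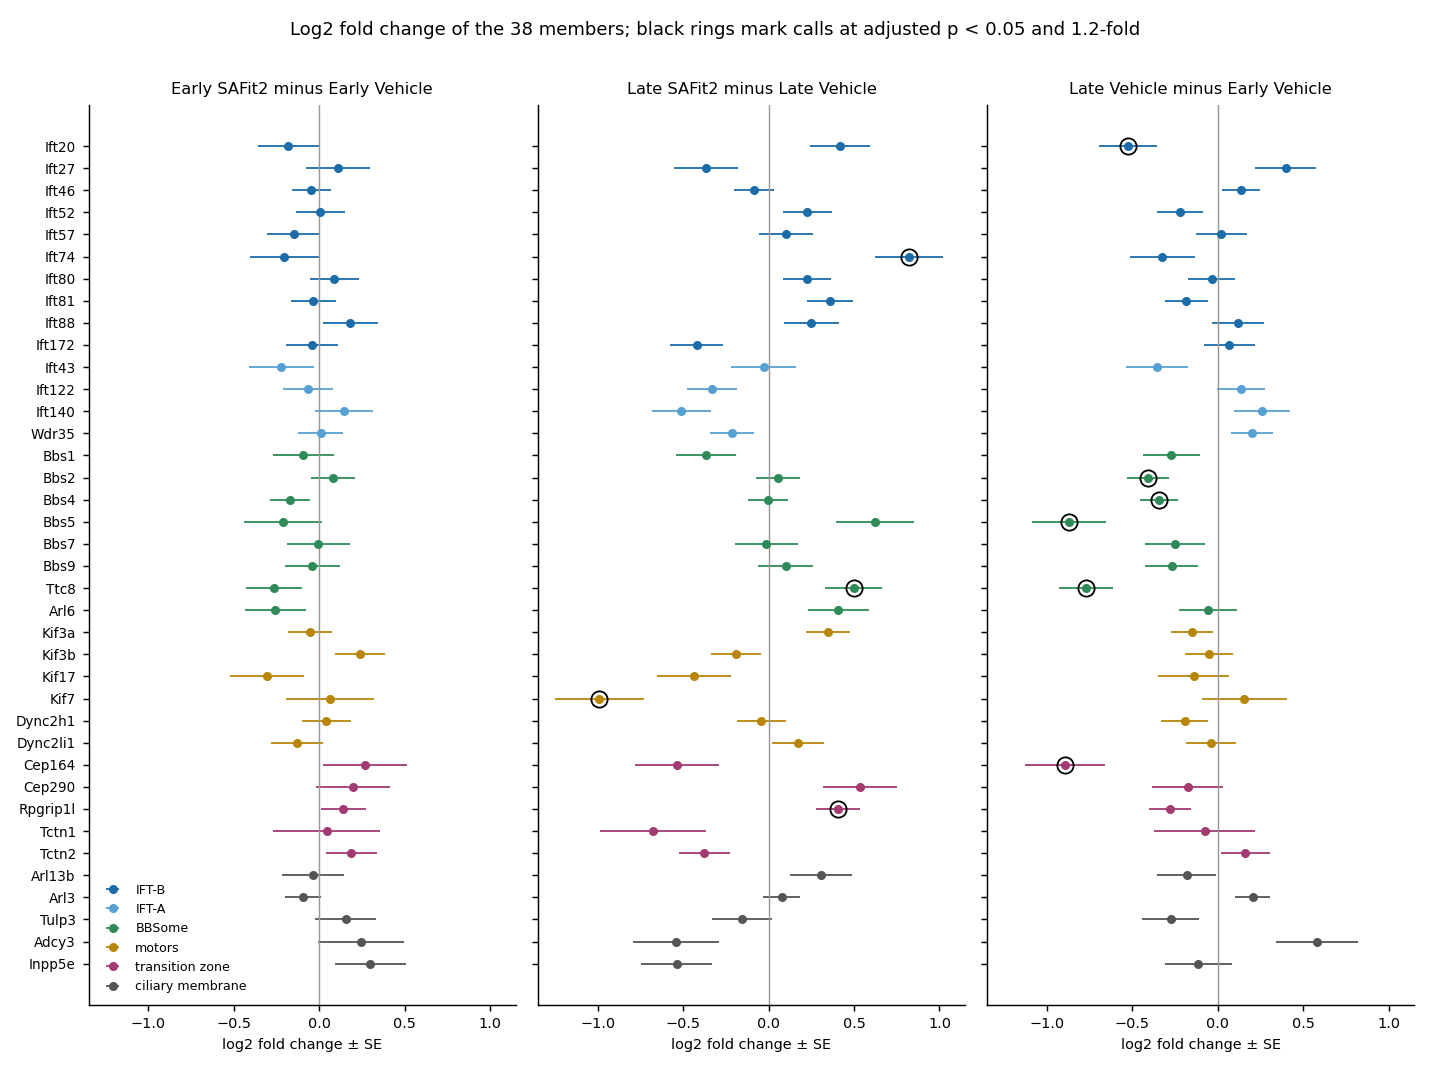
Log2 fold change of each member ± SE in the early, late and vehicle comparisons, in order of complex and coloured by it. Black rings mark calls at adjusted p under 0.05 and a 1.2-fold change: none early, 4 late, of which Kif7 is the lower, and 6 between the vehicle groups, all lower.

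The sign of the late value followed base composition. Across the 38 members the late log2 fold change and GC content gave r = -0.834 and rho = -0.823 (n = 38 genes), against r = -0.612 and rho = -0.677 across the 16213 genes with a GC value. These genes share libraries and depth and are not independent replicates, so the coefficients are a description. Of the 19 members below the median member GC content, 14 were positive with a median of 0.25, and of the 19 above it 15 were negative with a median of -0.37. Ift74 (41.6% GC), Rpgrip1l (41.6%) and Ttc8 (44.6%) belong to the first set and Kif7 (59.6%) to the second.

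The libraries themselves differed in this respect. The slope of expression on GC content was -0.05, -0.33, -0.22, -0.48 and -0.40 log2 per 10 points in the Late SAFit2 mice. In Late Vehicle mice it ran from -0.32 to 0.49 with a median of 0.30, replicates 2 and 6 being the ones below 0. The share of reads on Bc1, a short neuronal RNA, was 7.73 ± 5.30% (SD, n = 5) in Late SAFit2 and 2.92 ± 2.39% (SD, n = 6) in Late Vehicle libraries. Mitochondrial genes took 13.8 ± 0.860% (SD, n = 5) and 9.23 ± 2.55% (SD, n = 6) of reads. After correction of each library for GC content and length, 0 members were called and 7 passed nominal p, against 0 genes called and 16.1% nominal among all. The log2 fold change of Ift74 was then 0.52, of Kif7 -0.39, of Ttc8 0.32 and of Rpgrip1l 0.14, and the medians of the low-GC and high-GC members were 0.05 and -0.06. Whether the spread in GC slope comes from the RNA, the library preparation or the treatment was not tested.

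**Figure D4:**
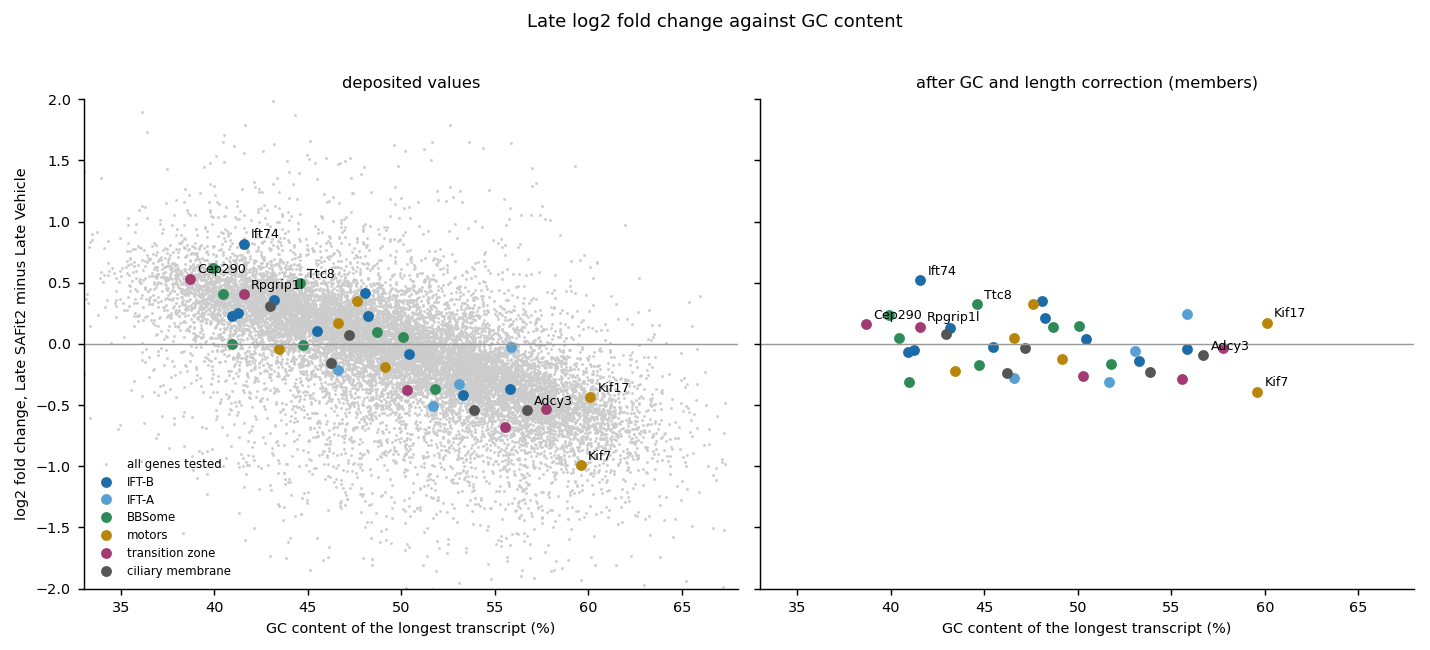
Late log2 fold change (vertical) against GC content of the longest transcript in percent (horizontal), members coloured by complex; grey points are all genes tested, of which 48 of 16213 lie outside the axes. As deposited (left) 14 of the 19 members below the median GC content lie above 0 and 15 of the 19 above it lie below 0, with r = -0.834; after GC and length correction (right) r is -0.277.

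Single libraries also moved the late count. It was 0 without Late SAFit2 replicate 2, 4 or 5 and without Late Vehicle replicate 1, 3, 4 or 5, with 9 to 16 members then past nominal p and at most 0.0477% of all genes called. It was 16 without Late Vehicle replicate 6 (29.7% of all genes called), 10 without Late Vehicle replicate 2 (22.6%), 9 without Late SAFit2 replicate 1 (21.1%) and 7 without Early Vehicle replicate 5 (17.4%), so the share of all genes moved with it. Without Early SAFit2 replicate 4 or 5 or Early Vehicle replicate 2 or 6 it was 2 (7.09% to 8.43%). Ift74 and Kif7 each kept their call in 15 of the 22 omissions, Rpgrip1l in 10 and Ttc8 in 7, always with the same sign. Under the 19 other settings Ift74 kept it in 13, Kif7 in 12, Rpgrip1l in 9 and Ttc8 in 8. Rpgrip1l was also lost without Late SAFit2 replicate 3, Early SAFit2 replicate 4 or 5, or Early Vehicle replicate 2 or 6. Ttc8 held without Early SAFit2 replicate 1, Early Vehicle replicate 4 or 5, Late SAFit2 replicate 1 or 3, or Late Vehicle replicate 2 or 6.

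Multiciliated markers were mostly negative with late SAFit2 as well, 37 of 40 with a median of -0.64. At nominal p 9 were lower and 4 were called lower, Foxj1, Dnah11, Hydin and Drc7, where all genes had 19% and 6.72%, so these counts lie near the background. Their sum was 83.3, 58.2, 70.1, 113 and 164 CPM in Late SAFit2 and 79.6 to 200.01 CPM in Late Vehicle mice (median 138), overlapping ranges. With their mean as a covariate 12 members were called late, against 26.3% of all genes, with 21 positive and 17 negative. Of markers of other cells, skeletal muscle genes summed to 76.3 ± 101 CPM (SD, n = 5) in Late SAFit2 libraries and to a mean of 3.71 to 4.87 CPM in the other groups, with 7 of 7 positive and 1 called. Called in the late comparison were also 1 of 8 oligodendrocyte markers, higher, and 1 of 10 neuronal, 1 of 4 precursor and 1 of 5 endothelial markers, lower, against none of 8 astrocyte, 8 microglial or 4 red cell markers. The part of these other cells in the members' late values was not tested.

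**Figure D5:**
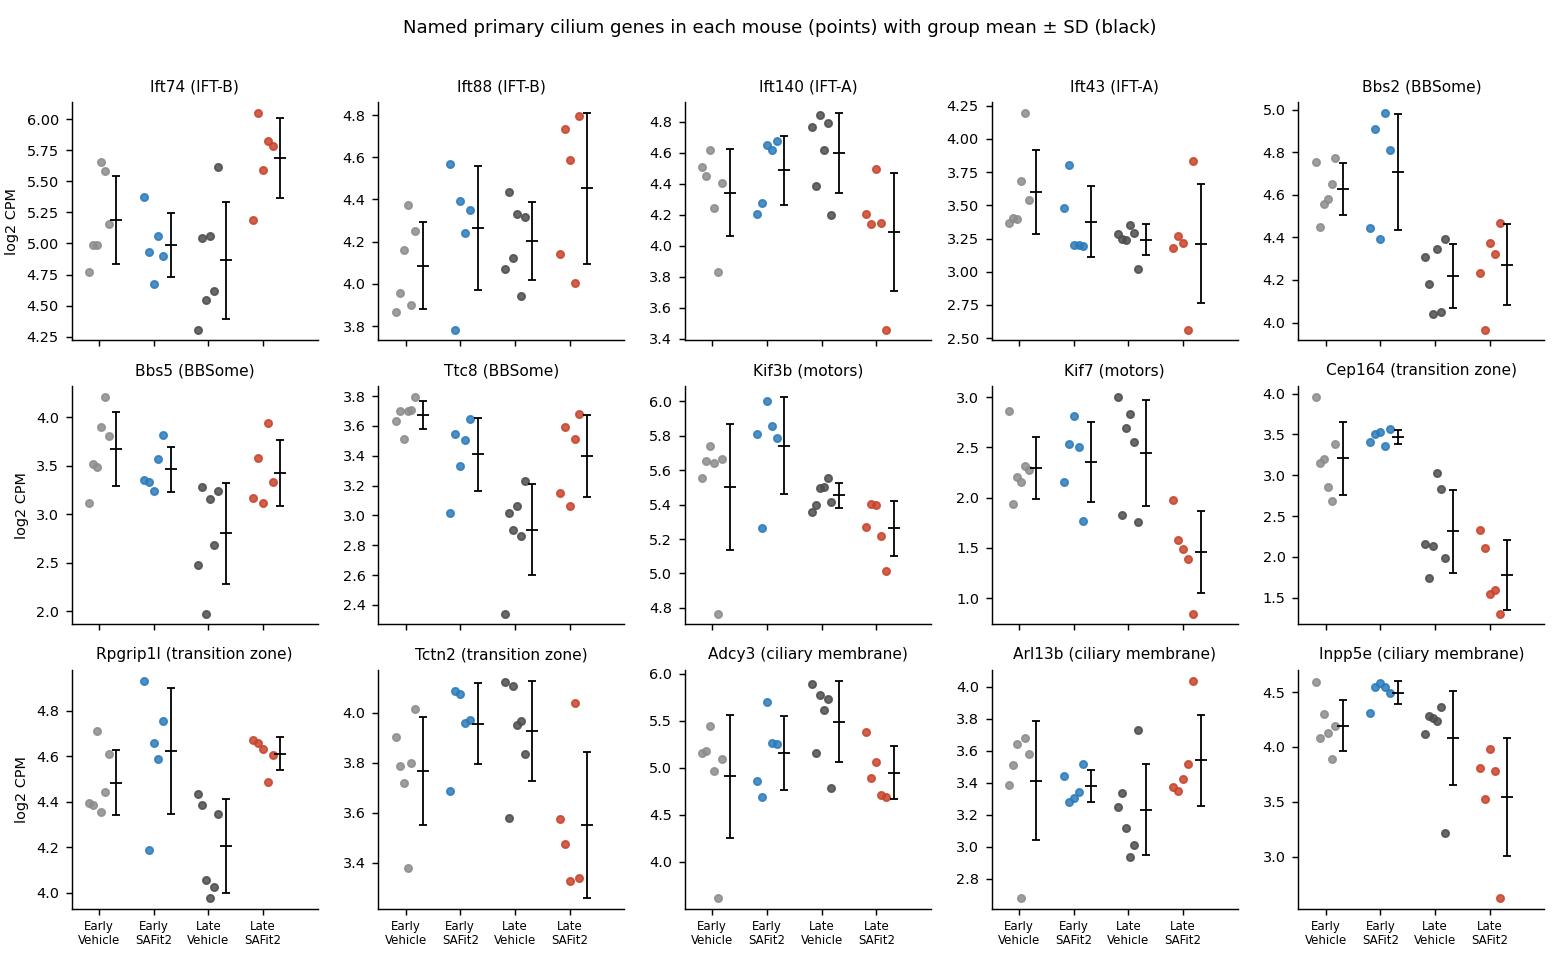
Log2 CPM of the 15 named members in each mouse (points) with group mean ± SD (black), in the order Early Vehicle, Early SAFit2, Late Vehicle, Late SAFit2. Rpgrip1l is the named member whose late groups do not overlap, and Ttc8, Bbs2 and Ift43 are those whose vehicle groups do not.

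The vehicle groups show how the members stood between the timings without drug, a difference that holds both when the gel was given and the batch. In Late against Early Vehicle mice all 8 BBSome genes were negative, with a median of -0.31 against 0.01 for all genes and 4 called. Arl6, at -0.06, turned positive under median centring and GC and length correction. Motors (5 of 6 negative) and transition zone genes (4 of 5) leaned the same way as deposited, though 2 of 6 and 3 of 5 were negative after that correction, and whether the BBSome differs from them was not tested. In all 6 members were called, all lower: Ttc8, Bbs5, Bbs2 and Bbs4 of the BBSome, Cep164 and Ift20. Among all genes 9.11% were called, 3.29% higher and 5.82% lower. At nominal p 2 members were higher, Ift27 and Adcy3, and 7 lower, against 24.3% of all genes (11.2% higher and 13% lower). Exact permutation put 8 members (21.1%) under 0.05, against 22.6% of all genes. Across the 38, 12 were positive and 26 negative (16 and 22 after median centring, 18 and 20 after GC and length correction), with a median of -0.15.

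Ttc8 had the lowest p of the members. Its Early Vehicle values of 3.51 to 3.79 log2 CPM (median 3.70) lay wholly above the Late Vehicle values of 2.34 to 3.23 (median 2.96). The difference was -0.77 (SE 0.16, adjusted p = 0.0024, exact permutation p = 0.0022, the smallest possible over 924 splits). Bbs5 ran from 3.12 to 4.21 (median 3.67) early and from 1.98 to 3.28 (median 2.92) late, a difference of -0.87 (SE 0.22, adjusted p = 0.0111, exact permutation p = 0.0087). All 6 Late Vehicle mice lay below the early mean, and 3 below every early mouse.

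Cep164 changed by -0.89 (SE 0.23, adjusted p = 0.0162, exact permutation p = 0.0130), from 2.69 to 3.96 log2 CPM (median 3.17) in Early Vehicle to 1.74 to 3.03 (median 2.15) in Late Vehicle mice. The drug groups showed the same order, with 3.41, 3.50, 3.53, 3.36 and 3.56 in Early SAFit2 and 2.33, 2.11, 1.54, 1.59 and 1.30 in Late SAFit2 mice, a comparison that was not tested. Every Late SAFit2 mouse lay below every Early SAFit2 mouse, as was so for Inpp5e, while for Arl6 every one lay above. The share of all genes without overlap between these groups was not counted.

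Bbs2 had narrow groups that did not overlap, 4.45 to 4.77 log2 CPM early (median 4.61) and 4.04 to 4.39 late (median 4.25), a difference of -0.41 (SE 0.12, adjusted p = 0.0365, exact permutation p = 0.0022). Ift43 did not overlap either, the highest late mouse lying just under the lowest early one, but was not called (-0.36, adjusted p = 0.227, exact permutation p = 0.0022). These 3 members without overlap compare with 4.92% of all genes. Bbs4 (-0.35, adjusted p = 0.0491) and Ift20 (-0.52, adjusted p = 0.0497) passed by little, each with 6 of 6 late mice below the early mean.

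The calls of Ttc8, Bbs5 and Cep164 held under all 19 other settings tried and in all 22 omissions of a library. Of the settings, Bbs2 was lost under median centring and quantile normalization. Bbs4 was lost under 7, among them median centring and GC and length correction, and Ift20 under 6, among them median centring and quantile normalization. Of the omissions, Bbs2 was lost without Early Vehicle replicate 1, 5 or 6 or Late Vehicle replicate 1, 2, 3 or 5. Bbs4 held in 5 omissions (Early Vehicle replicate 1 or 6, Late SAFit2 replicate 1 or 5, Late Vehicle replicate 6). Ift20 held in 7 (Early SAFit2 replicate 2 or 3, Early Vehicle replicate 3 or 6, Late SAFit2 replicate 1 or 5, Late Vehicle replicate 6). The count fell to 3 without Early Vehicle replicate 5 or Late Vehicle replicate 1, 2, 3 or 5. Unlike the late values, the vehicle values were little related to GC content across the members (r = 0.268, rho = 0.279, n = 38 genes), and 8 members (21.1%) were called after GC and length correction, 3 higher and 5 lower, against 18.6% of all genes. The medians of all genes and of the members moved to -0.10 and -0.26 when Bc1 and mitochondrial genes were left out of library sizes.

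Late Vehicle mice enter both the late and the vehicle comparison, so the higher Ttc8 and Bbs5 values with late SAFit2 and the lower ones in Late Vehicle mice rest in part on the same 6 libraries. By group means Ttc8 stood at 3.41 ± 0.25 in Early SAFit2 (SD, n = 5), 3.67 ± 0.09 in Early Vehicle (SD, n = 6), 3.40 ± 0.28 in Late SAFit2 (SD, n = 5) and 2.90 ± 0.30 log2 CPM in Late Vehicle mice (SD, n = 6). For Bbs5 the means were 3.46 ± 0.23 in Early SAFit2 (SD, n = 5), 3.68 ± 0.38 in Early Vehicle (SD, n = 6), 3.43 ± 0.34 in Late SAFit2 (SD, n = 5) and 2.80 ± 0.52 in Late Vehicle mice (SD, n = 6). In both genes the Late Vehicle group was the low one of the 4.

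Among multiciliated markers 25 of 40 were positive between the vehicle groups, with a median of 0.23, and 3 were called lower, Ccdc39, Dnah12 and Cfap65, where all genes had 5.82% lower. With their mean as a covariate 6 members were called, against 10.3% of all genes, with 12 positive and 26 negative as without it. Of other cell markers 2 neuronal, 2 astrocyte, 1 oligodendrocyte, 1 endothelial and 1 red cell gene were called, all higher, and no precursor, microglial or muscle gene. Among all genes 3.29% were called higher. Of the 8 microglial markers 7 were positive and 1 negative, and 4 were higher at nominal p, against 11.2% of all genes. The part of these other cells in the members' vehicle values was not tested.

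Whether the response to SAFit2 depended on timing was tested directly, as the early minus the late effect. By adjusted p 0 of 38 members and 0% of all genes passed, the lowest adjusted p of a member being 0.120. At nominal p 14 members passed, 7 in each direction, against 24.9% of all genes (14% higher and 10.9% lower). The early effect exceeded the late one for Ift140, Kif3b, Kif7, Cep164, Tctn2, Adcy3 and Inpp5e, and fell short of it for Ift20, Ift74, Ift81, Bbs5, Ttc8, Arl6 and Kif3a. The outermost values were 1.05 for Kif7 (SE 0.37, adjusted p = 0.121) and -1.02 for Ift74 (SE 0.28, adjusted p = 0.120). These values too went with GC content across the members (r = 0.740, rho = 0.726, n = 38 genes), and 8 passed nominal p after GC and length correction, against 12.1% of all genes. The count was 9 without Early SAFit2 replicate 3, Late SAFit2 replicate 5 or Late Vehicle replicate 5.

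The mean of the early and late effects gave 0 calls for members and 0% for all genes after adjustment. At nominal p 6 members passed against 13.2% of all genes, 3 higher (6.03%) and 3 lower (7.18%). The higher were Ift74 (0.31), the transition zone scaffold Rpgrip1l (0.27) and Cep290 (0.37), whose protein links the membrane to the microtubules at the ciliary base. The lower were Ift172 (-0.23), the accessory ciliary kinesin Kif17 (-0.37) and Kif7 (-0.46). GC content and the mean effect gave r = -0.841 and rho = -0.825 (n = 38 genes), and after correction 1 member, Bbs4, passed nominal p, against 8.39% of all genes. Without Early SAFit2 replicate 1 the count was 2.

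Further genes of the primary cilium were tested beside the members. Of 71, other IFT, BBSome, motor, transition zone and membrane genes, 0 were called and 0 passed nominal p early, with 27 positive and 44 negative and a median of -0.05. The largest early values by p were Ttbk2 (0.27) and Tmem216 (0.47) on the positive and Dync2i2 (-0.27) and Tmem107 (-0.38) on the negative side. Late, 4 were called higher and 4 lower, with a median of -0.03, where all genes had 5.33% higher and 6.72% lower. Among the higher were Rab10 (0.41, adjusted p = 0.0331), a GTPase of vesicle traffic, and Iqcb1 (0.55, adjusted p = 0.0342), a partner of Cep290. Lower were Dync2i2 (-0.66, adjusted p = 0.0324), a dynein-2 chain, and Pkd1 (-0.88, adjusted p = 0.0349), the polycystin of ciliary membranes.

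Between the vehicle groups 1 of the 71 was called higher, Rab8a (0.32, adjusted p = 0.0416), which feeds membrane to the growing cilium, and 7 lower, with a median of -0.15, where all genes had 3.29% higher and 5.82% lower. Pkd1 was among the lower (-1.09, adjusted p = 0.0040). Of the 31 other transition zone genes 27 were negative and 4 called lower, Cplane1 at -0.93 having the lowest p.

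Some member values may hold reads of a neighbour. The exons of 10 members overlap those of another gene in GENCODE M21, and for 6 that gene is in the table: Sh2d5 on the same strand for Kif17, and on the opposite strand Adpgk for Bbs4, 4930430F08Rik for Cep290, Hvcn1 for Tctn1, Cenpo for Adcy3 and Pmpca for Inpp5e. The shared part is 22.1% of the exon bases of Adcy3, 20.3% of Inpp5e and 19.0% of Tctn1. Kif7 shares 19.1% with an antisense transcript outside the table. The library kit keeps strand, but whether counting used it is not stated, so the values of these genes are uncertain to that extent.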

How the data were processed

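Messenger RNA of lumbar spinal cord, by the paper its dorsal horn quadrant on the injured side, was sequenced from 22 mice. The deposited log2 values are log2 CPM that the authors made with Trimmomatic, HISAT2 on mm10, featureCounts and edgeR's TMM scaling, per the submitters' notes and the paper, with no versions given. Groups come from the sample labels. From the values, whole reads per gene were recovered (100% of the values checked, those of low reads, within 0.02 of a whole read). The log2 values of 16765 genes (at least -1 in 5 libraries) were fitted with limma 3.58.1 in R 4.3.3, with a trended variance and 1 coefficient per group. A call needs a 1.2-fold change with p under 0.05 after Benjamini-Hochberg adjustment; nominal means unadjusted p under 0.05. The early, late and vehicle differences, the mean SAFit2 effect and the early minus late effect were tested, and the steps were tested on simulated data. GC content and transcript length come from GENCODE M21, and the correction is a loess of each library on both (span 0.5). Exact permutation tests used every split of the mice. Members and marker lists were chosen with earlier results of these data known. Named members are those called, up to the 4 of lowest p in each direction of a comparison, the lowest p of each complex in the early and late comparisons, and the markers Ift88, Arl13b and Adcy3. Of other cilium genes the 2 of lowest p in each direction were named; others were named after their values were seen. Tables and figures used Python 3.11.15, numpy 2.4.6, pandas 2.3.3, scipy 1.17.1 and matplotlib 3.10.9.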

Additional observations from a re-analysis of the deposited data

Results flagged for a closer look

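In 15 named members and 4 groups each, 60 sets of values, 6 had a mouse far from the others of its group by Dixon's criterion, where chance gives about 1 in 20. Early Vehicle replicate 5 was low for Kif3b (4.77 log2 CPM, next 5.55) and Adcy3 (3.62, next 4.96). Late Vehicle replicate 6 was low for Ift43 (3.02, next 3.24) and Inpp5e (3.22, next 4.12). Arl13b was low in Early Vehicle replicate 4 (2.68, next 3.39) and high in Late SAFit2 replicate 5 (4.04, next 3.51). These libraries also had high shares of Bc1 or mitochondrial reads for their groups. Mitochondrial genes took 18.3% in Early Vehicle replicate 5 (group median 8.80%) and 13.9% in Late Vehicle replicate 6 (8.23%). Bc1 took 11.9% in Early Vehicle replicate 4 (1.67%), 7.55% in Late Vehicle replicate 6 (1.78%) and 16.5% in Late SAFit2 replicate 5 (5.14%). Whether those shares bear on the members' values was not tested.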

How the results depend on the processing

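The early count of called members was 0 by limma in all 19 settings and 22 omissions of a library, with voom also at 0. The late count of 4 was within 1.5 times under 10 of 21 settings. It was 0 with variance without trend (17 nominal), with only the mice compared (16 nominal), and with GC and length correction with or without the replicate block (7 nominal each). It was 1 with voom (5.23% of all genes called), 8 with the replicate block (18.8%), 12 with a multiciliated covariate (26.3%), 13 at adjusted p under 0.1 (26.4%) and 21 with library quality weights (38.1%), against 12.1% for the 4, so the background moved with it. Chosen after seeing the data, a GC slope covariate gave 0 (2 nominal) and leaving out libraries with Bc1 over 5% gave 0 (8 nominal). Omitting 1 library gave 0 (without Late SAFit2 replicate 2, 4 or 5 or Late Vehicle replicate 1, 3, 4 or 5) to 16 (without Late Vehicle replicate 6). Late calls were 3 higher and 1 lower, but 1 higher and 2 lower with library sizes without Bc1 and mitochondrial genes.

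The vehicle count of 6 (9.11% of all genes) became 17 with library quality weights (30.2%) and 3 with median centring (12%); it was 6 with the replicate block and with voom, and omissions gave 3 to 8. The nominal count of the mean effect, 6 (13.2% of all genes), became 18 with weights (38.2%), 1 with GC and length correction (8.39%), 2 with that and the block (8.29%), 10 with the multiciliated covariate (22.8%) and 3 with the GC slope (5.51%); it was 7 with the replicate block, and omissions gave 2 to 9. For early minus late, 14 (24.9%) became 8 with GC and length correction (12.1%), 7 with that and the block (12.5%), 8 with the multiciliated covariate (15.9%), 2 with the GC slope (2.96%) and 5 without high Bc1 (14.1%); it was 14 with the replicate block, and omissions gave 9 to 15. The cause of these moves was not tested. Named members kept their sign wherever they pass.

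Mice of the same replicate number share only a number: 16 pairs correlated at -0.236 to 0.317, and 2 correlated best with their own number. Timing and batch cannot be told apart, and bulk RNA does not resolve cells.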
